A study of Mus musculus with 4 samples.

Results

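Angiogenic capillary endothelial cells (ECs) of the adult mouse brain, without the tip cells that lead sprouts, were taken from single-cell RNA counts of *Angpt2*-WT and *Angpt2*-KO mice. The cells were chosen by measured counts: a cell was called angiogenic when at least 3 of the 8 genes *Apln*, *Esm1*, *Angpt2*, *Itga4*, *Fgfbp1*, *Gda*, *Nog* and *Ica1l* had a unique molecular identifier (UMI, the tag that marks 1 captured RNA molecule). Cells with 10 or more *Apln* UMIs and 5 or more *Esm1* UMIs were left out as tip cells. These cuts are numbers of UMIs, so that a cell with few UMIs in all is less likely to reach them. ECs were cells with at least 3 of *Cldn5*, *Flt1*, *Pecam1*, *Cdh5*, *Kdr* and *Tie1* detected and under 3 UMIs in all of *Pdgfrb*, *Vtn*, *Acta2* and *C1qb*, among cells with over 500 genes and under 10% mitochondrial UMIs. The rule found 1133 angiogenic ECs among 14924 ECs and 17999 cells. The ECs in which none of the 8 genes was detected, 9487 cells, served as reference ECs within each mouse.

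The study asked how the brain vasculature changes when angiopoietin-2 is absent. Each of its 4 libraries held the cells of 1 mouse, 3 months old, from brain microvascular fragments isolated with antibody to PECAM1. The *Angpt2*-KO mice, KO1 (female) and KO2 (male), carried a constitutive deletion of exon 4 of *Angpt2*, and the *Angpt2*-WT mice, WT1 (female) and WT2 (male), were littermates on the same C57BL6/J background. The allele was made with a *Pgk*-Cre that acts in the germ line, so the gene was deleted in every cell type from the start of development and not in ECs alone. The libraries were sequenced from the 3′ end of transcripts, so that UMIs of *Angpt2* lie outside the deleted exon and do not check the genotype. *Angpt2* also lies within *Mcph1*, on the opposite strand. The 4 libraries held between 31753395 (KO2) and 42903731 (WT2) UMIs in cells that passed the filters.

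Angiopoietin-2, the product of *Angpt2*, is a secreted ligand of the endothelial receptor TIE2 (*Tek*), made mainly by ECs of growing or remodelling vessels, where it mostly opposes the stabilizing ligand angiopoietin-1. In a growing capillary bed a VEGF-guided tip cell extends filopodia and migrates, and the cells behind it divide, deposit new basement membrane and form the tube. In the mature brain the same capillary cells are quiescent and carry the blood-brain barrier, with tight junctions, few caveolae and a dense set of transporters maintained by Wnt/beta-catenin signals.

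The share of ECs in the angiogenic gate was 25.6% in KO1 (578 of 2261 ECs, 95% exact interval 23.8 to 27.4%) and 10.8% in KO2 (466 of 4325, 9.87 to 11.7%). It was 1.52% in WT1 (51 of 3350, 1.14 to 2.00%) and 0.762% in WT2 (38 of 4988, 0.540 to 1.04%). Both *Angpt2*-KO shares lay above both *Angpt2*-WT shares, and KO1 lay above KO2 by more than the counting error, which is all that these intervals cover. The means were 18.2% ± 10.5 (SD, n = 2 mice) and 1.14% ± 0.538 (SD, n = 2 mice). The rule itself counts these genes, 1 of which is the deleted gene, so the shares are a description and were not tested. Microglia-like cells, which do not form vessels, held no gated cell (0 of 221 in KO1 and 0 of 218 in KO2, where 3 counts of the total would be a share of 1.36% and 1.38%).

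A cell with more UMIs has more chances to show 3 genes, and the angiogenic ECs were deep. Their median was 10436.5 UMIs in KO1 and 6360.5 in KO2, against 5090.5 and 3277 in reference ECs, and 17234 and 14742 in the few gated cells of WT1 and WT2. When every EC was thinned to 3000 UMIs, which left out 237 ECs of KO1, 1315 of KO2, 446 of WT1 and 1221 of WT2, the gate held 11.1% and 6.71% of ECs in KO1 and KO2 and 0.310% and 0.0531% in WT1 and WT2. Among ECs of 5000 to 15000 UMIs it held 28.2%, 20.4%, 1.34% and 0.942% in the same order. KO1 was highest, KO2 next and WT2 lowest in each of these 3 settings.

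**Figure D1:**
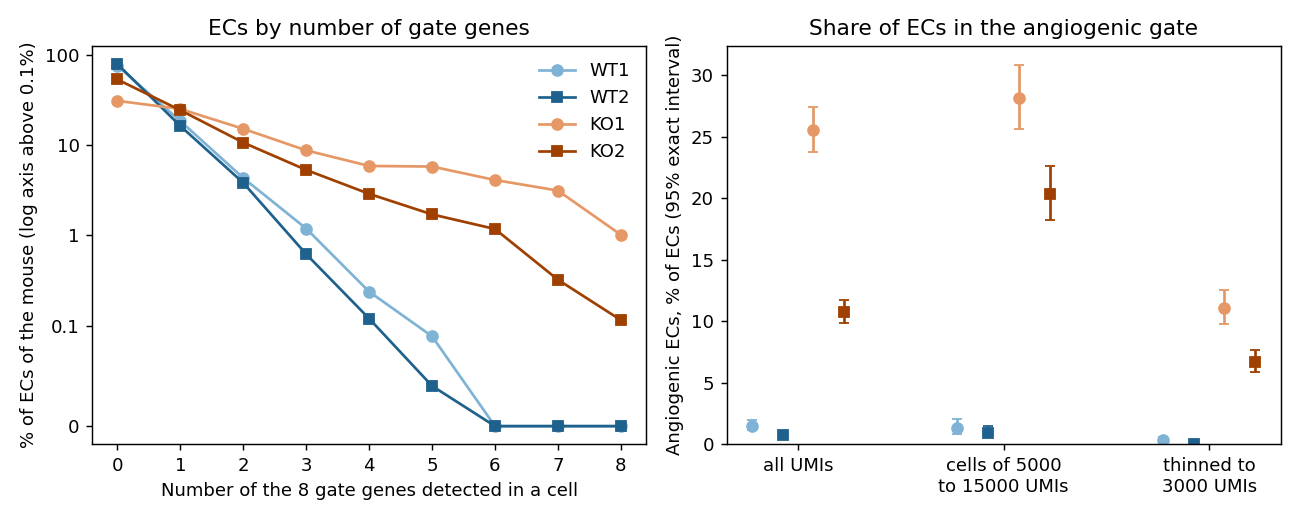
Left, percent of the ECs of each mouse (log axis above 0.1%) by the number of the 8 gate genes detected in a cell; right, percent of ECs in the angiogenic gate with all UMIs, in cells of 5000 to 15000 UMIs and after thinning to 3000 UMIs, with 95% exact intervals. The WT curves are at 0 from 6 genes on and the KO curves reach 8; KO1 and KO2 lie above WT1 and WT2 in all 3 settings.

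No single set of gate genes made up the angiogenic ECs. They showed 179 different combinations of detected gate genes, and the most frequent, *Itga4* with *Gda* and *Ica1l*, took 3.53% of them. *Itga4*, an integrin subunit that binds VCAM-1 and fibronectin, was detected in 86.5% of angiogenic ECs of KO1 and 78.8% of KO2. *Gda*, guanine deaminase, was detected in 66.6% and 63.1%, and *Angpt2* in 62.1% and 57.7%. *Nog* (noggin, a secreted BMP antagonist) was detected in 46.7% and 31.1%, and *Fgfbp1* (a carrier that releases stored FGF) in 40.0% and 27.7%. Neither *Apln* nor *Esm1*, the genes that define tip cells here, had a UMI in 206 of 578 angiogenic ECs of KO1 (35.6%) and 176 of 466 of KO2 (37.8%). *Nog* and *Fgfbp1* were at lower levels in tip cells than in angiogenic ECs: *Nog* was at 78.6 (KO1) and 59.6 (KO2) raw CPM (UMIs scaled to a common total of UMIs, without further normalization) in angiogenic ECs and at 13.0 and 7.56 in tip cells, and *Fgfbp1* at 98.3 and 79.8 against 45.7 and 33.3. All of these are genes of the gate, given as a description.

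At the edge of the gate, 197 angiogenic ECs of KO1 and 230 of KO2 held exactly 3 gate genes, and 343 and 462 ECs just outside held exactly 2. *Lamb1*, which took no part in the gate, was at 26.8 and 29.7 raw CPM in the cells with 3 genes and at 12.7 and 11.4 in those with 2. *Vcam1* was at 31.8 and 61.9 with 3 genes and at 137 and 127 with 2.

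The label was checked on genes outside the gate. In the *Angpt2*-KO mice 3 of 7 capillary markers were called higher and 3 lower than in reference ECs (median log2 fold change 0.09), while 6 of 8 tested arterial markers and 6 of 7 venous markers were called lower. *Spock2*, a capillary marker, was at 2883 (KO1) and 2918 (KO2) CPM (here and below of normalized sums over cells unless called raw) in angiogenic and at 3199 and 3406 in reference ECs, and *Car4* was at 825 and 581 against 895 and 784, so that both were abundant but lower. *Rgcc* was at 526 and 502 against 295 and 276, and *Ivns1abp* (0.96) and *Mfsd2a* (0.25) were the other capillary markers called higher. The capillary label fitted the 89 gated *Angpt2*-WT cells less well: *Plvap*, the protein of the diaphragm of fenestrated endothelium, had 5 or more UMIs in 13 of 51 gated cells of WT1 (25.5%) and 20 of 38 of WT2 (52.6%), but in 15 of 578 of KO1 (2.60%) and 9 of 466 of KO2 (1.93%). *Cldn5*, a tight junction gene of brain ECs, was detected in 90.2% and 68.4% of the gated cells of WT1 and WT2 and in 97.9% and 98.3% of those of KO1 and KO2, which is a description, since the rule for ECs used it. The results on *Angpt2*-WT cells are therefore given last, with and without cells of 5 or more *Plvap* UMIs.

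Over all pairs of libraries 40 cell barcodes were shared, 33 of them by cells that passed the filters in both. Of the angiogenic ECs 4 had a barcode found in another library, and no barcode was angiogenic in both. Marker lists of other cell types were summed in the angiogenic ECs of KO1 and KO2. The 6 pericyte markers summed to 51.0 and 60.6 raw CPM (60.1 and 63.7 in reference ECs), most of it *Rgs5*. The 7 microglia markers summed to 38.9 and 63.7 (47.6 and 84.3 in reference ECs), and none was at 0. The 5 fibroblast markers summed to 1.08 and 1.04, with *Lum* at 0 in both mice, and the 4 neuron markers to 3.61 and 5.96. The 4 smooth muscle markers summed to 7.34 and 12.2 (6.68 and 22.3 in reference ECs) and the 6 astrocyte markers to 21.1 and 24.6 (33.6 and 22.2). The 5 oligodendrocyte markers summed to 572 and 553 (712 and 683), nearly all of it *Mal*. The 4 choroid plexus markers summed to 245 and 785 (191 and 396) and the 3 markers of fenestrated ECs to 619 and 271 (168 and 147). Red blood cell markers summed to far more and are given with their test below. *Cnn1* of smooth muscle, *Aqp4* of astrocytes and *Mog* of oligodendrocytes were at 0 in the angiogenic ECs of both mice.

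Angiogenic and reference ECs were then compared within the *Angpt2*-KO mice, which asks what else differs in cells that pass the gate. The UMIs of each group were added up per mouse. The test was the quasi-likelihood F test of edgeR, with a term for the mouse, and p was adjusted by Benjamini and Hochberg's method. Of 11559 genes tested, none of them a gene of any gate, 1562 were higher and 1347 lower in angiogenic ECs at an adjusted p under 0.05, which is 25.2% of the genes (13.5% higher and 11.7% lower). Over all genes tested the median log2 fold change was −0.0067. With 2 mice the spread rests largely on what the fit shares across genes, and a fit that left out the mouse term called 879 genes higher and 680 lower. In cells of 5000 to 15000 UMIs alone 1865 genes were called, 948 of them higher, and 90.1% of these calls were also made in all cells.

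Among the genes named here the largest rise was that of *Lamb1*, the laminin beta 1 chain of the vascular basement membrane (ENSMUSG00000002900, GRCm38 chr12:31265234-31329644, forward strand). It was at 45.2 CPM in KO1 and 39.6 in KO2 in angiogenic ECs and at 1.28 and 2.12 in reference ECs, so that the groups did not overlap. The log2 fold change was 4.50 ± 0.21 (SE of the edgeR fit to 2 mice, adjusted p = 3.85e-98). By DESeq2 it was 4.58 ± 0.43 (adjusted p = 1.25e-23). ECs with 1 or 2 of the gate genes lay between, at 7.57 and 9.25 CPM, and tip cells above, at 511 and 487. After thinning to 3000 UMIs per cell, a *Lamb1* UMI was found in 9.27% of angiogenic ECs of KO1 and 7.78% of KO2, in 0.370% and 0.609% of reference ECs, and in 0.524% and 0.794% of microglia-like cells, which gives the background. Without thinning the shares were 22.5% and 14.8% of angiogenic ECs.

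*Fscn1*, fascin, which bundles the actin of filopodia (ENSMUSG00000029581, chr5:142960343-142973185), was at 70.6 and 45.1 CPM in angiogenic ECs of KO1 and KO2 and at 4.92 and 4.04 in reference ECs, a log2 fold change of 3.64 ± 0.15. *Thbs1*, thrombospondin 1, a matrix protein that restrains angiogenesis (ENSMUSG00000040152, chr2:118111876-118127133), was at 40.4 and 43.8 CPM against 4.28 and 4.99 (3.17 ± 0.17). In both genes the angiogenic values of both mice lay above both reference values. *Fscn1* is also a gene of microglia: at 3000 UMIs per cell it had a UMI in 57.1% and 54.0% of microglia-like cells, in 13.5% and 9.91% of angiogenic ECs and in 0.924% and 1.14% of reference ECs. At the same depth *Thbs1* had a UMI in 4.19% and 3.17% of microglia-like cells, close to the 6.06% and 4.48% of angiogenic ECs. In reference ECs it had a UMI in 1.29% and 0.762%.

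Genes of signalling molecules were also among the leading rises. *Kit*, the receptor of stem cell factor (chr5:75574916-75656722), was at 19.2 and 25.1 CPM against 3.43 and 1.17 (3.50 ± 0.25). *Bmp6*, a BMP ligand made by ECs (chr13:38345107-38500302), was at 46.7 and 46.6 CPM against 3.85 and 7.22 (2.98 ± 0.16). *Tnfsf8*, the CD30 ligand, was at 26.4 and 23.6 CPM against 4.92 and 2.23 (2.91 ± 0.22). Other leading rises, among genes of at least 20 CPM in the higher group, were *Lcp2* (3.73 ± 0.26), an adaptor known from T cell receptor signalling, *Prnd* (3.55 ± 0.17), the prion-like protein doppel, *Dpysl3* (3.38 ± 0.24), a cytoskeletal protein of growing neurites, *Gng2* (3.31 ± 0.18), a G protein gamma subunit, and *Lhfp* (2.87 ± 0.18). Of these, *Lcp2* and *Gng2* were also found in many microglia-like cells, in 40.3% and 38.1% for *Lcp2* and in 32.5% and 27.8% for *Gng2*, against 7.49% and 5.90% and 11.6% and 7.78% of angiogenic ECs at 3000 UMIs. Among cells with no UMI of a mural or microglial marker the log2 fold changes were 3.70 for *Fscn1*, 3.80 for *Lcp2* and 3.42 for *Gng2*. These 11 kept their direction and an adjusted p under 0.05 in all 17 alternatives run for this comparison, of which the fits without 1 *Angpt2*-KO mouse took their spread from the *Angpt2*-WT mice.

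**Figure D2:**
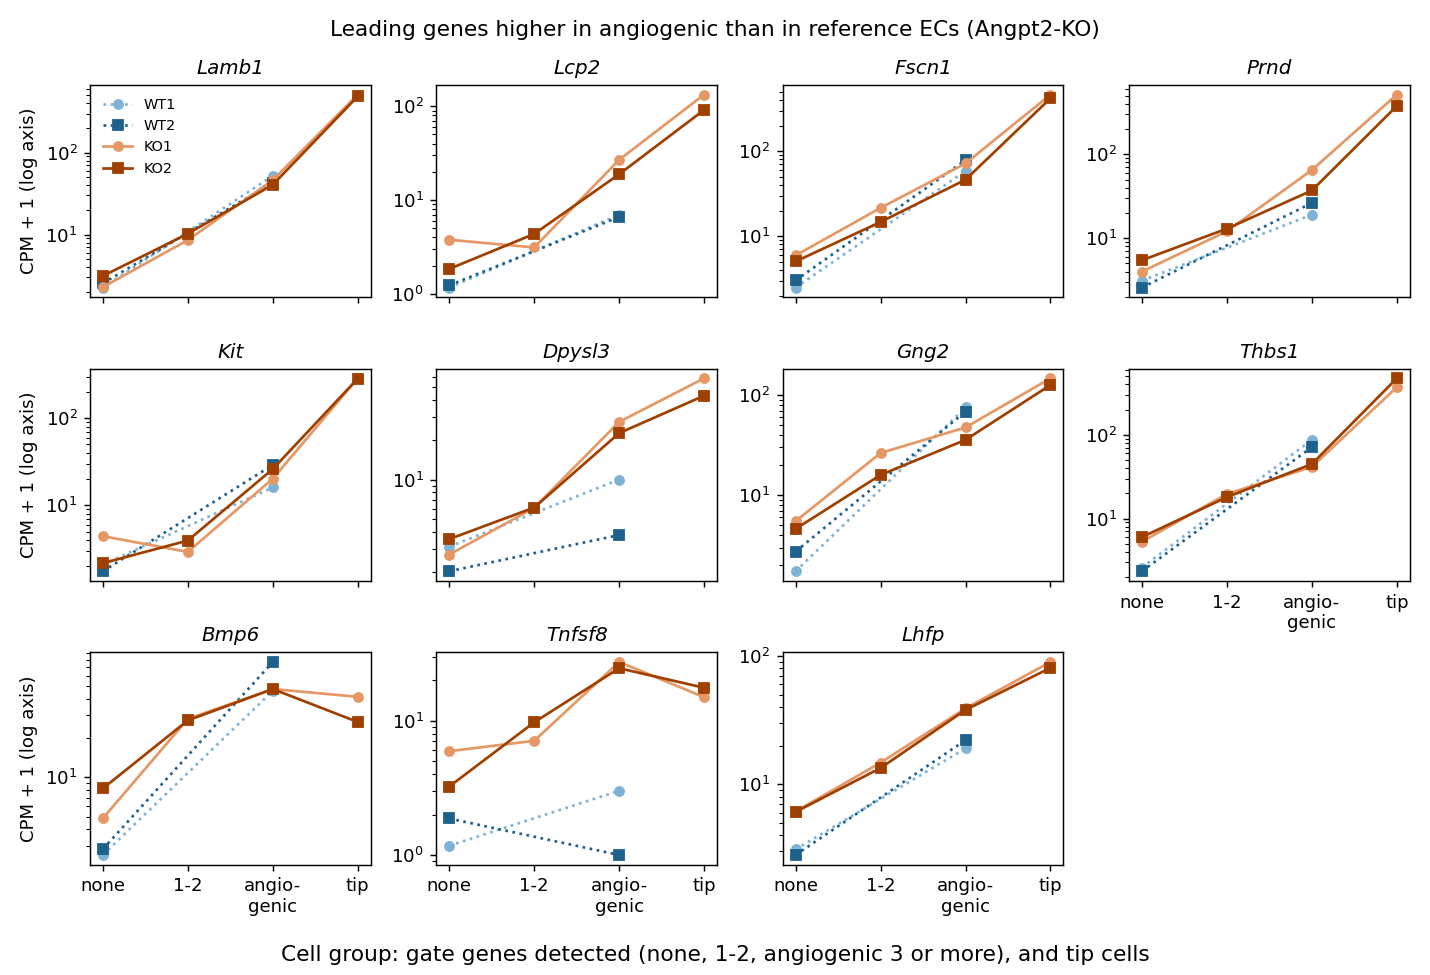
Normalized levels (CPM + 1, log axis) of 11 of the genes with the largest rise among genes of at least 20 CPM in the higher group, in ECs with none of the gate genes, with 1 or 2, in angiogenic ECs and in tip cells; each line is 1 mouse, dotted for WT, where only reference and angiogenic ECs are shown. Levels rise along the 4 groups in both KO mice for 7 of the 11; *Bmp6* and *Tnfsf8* are highest in angiogenic ECs and lower in tip cells.

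The angiogenic ECs were also split by genes of the gate, which is a description, since the rule used those genes and they are found more often in deep cells. *Lamb1* was at 58.8 (KO1) and 56.8 (KO2) raw CPM in the angiogenic ECs with an *Apln* or *Esm1* UMI and at 12.2 and 7.4 in those with neither. *Kit* was at 26.0 and 34.6 against 2.8 and 7.4, beside normalized levels of 3.43 and 1.17 CPM in reference ECs. In KO1 the cells with neither gene were thus no higher in *Kit* than reference ECs. *Bmp6* differed less, at 54.5 and 52.1 against 27.2 and 36.4. The angiogenic ECs with neither gene were shallower, with a median of 9155 and 5996 UMIs against 11569 and 6639. Near the cut for tip cells, 38 angiogenic ECs of KO1 and 15 of KO2 held 10 or more *Apln* UMIs. Those with 5 or more *Esm1* UMIs numbered 63 and 49. Among cells with 5 or more gate genes *Fscn1* was at 84.0 and 65.4 (medians of 13786 and 9448 UMIs) and among those with 3 at 41.1 and 22.5 (8723 and 5396 UMIs). *Lamb1* was at 211.5 and 91.2 in angiogenic ECs under 5000 UMIs (53 and 150 cells) and at 35.6 and 30.0 in those over 15000 UMIs (191 and 48 cells), and in both mice the shallow cells were the higher ones. The cut for tip cells is harder to reach for shallow cells. Whether shallow tip cells remained among the angiogenic ECs was not tested.

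Matrix genes were more often higher than lower. Of 27 tested genes of basement membrane and matrix assembly, 15 were higher and 4 lower, with a median log2 fold change of 0.64. Over all genes 13.5% were higher and 11.7% lower, the shares behind each list count in all cells up to the comparison with tip cells. Behind list counts without cells holding an arterial or venous marker stand 894 genes higher and 729 lower of 10238 tested. Behind those in cells of 5000 to 15000 UMIs stand 948 higher and 917 lower of 10397. Beside *Lamb1*, the nidogens that link laminin to collagen IV rose, *Nid1* by 1.66 ± 0.07 and *Nid2* by 1.56 ± 0.09, as did the heparan sulfate proteoglycan perlecan, *Hspg2*, by 1.22 ± 0.06. *Nid1* was at 209 and 162 CPM against 58.9 and 56.8. The main collagen IV chains rose by less, *Col4a2* by 1.07 ± 0.05 and *Col4a1* by 0.84 ± 0.05. *Lamb2* (−0.29 ± 0.06) and *Lama5* (−0.33 ± 0.08), laminin chains of mature vessels, were lower, of which *Lama5* was not called without cells holding an arterial or venous marker (−0.34, adjusted p = 0.0682) or in cells of 5000 to 15000 UMIs (−0.11, adjusted p = 0.675). *Mgp*, matrix Gla protein, which is also an arterial marker, fell the most. Without cells holding an arterial or venous marker 14 of 25 genes of the list were higher and 1 lower.

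Of 23 tested genes of actin cytoskeleton and filopodia, 17 were higher and 2 lower (median 0.43). *Actb*, cytoplasmic actin, was at 5099 and 5303 CPM against 3333 and 3788 (0.55 ± 0.04), and the non-muscle myosin *Myh9* at 910 and 994 against 513 and 556 (0.83 ± 0.05). *Msn*, moesin, which ties actin to the membrane, rose by 0.68 ± 0.05, and *Ezr*, the related ezrin, fell by 0.66 on the log2 scale (SE 0.13). Of 19 tested genes of integrins and focal adhesion 10 were higher and 2 lower (median 0.25). *Itgb1*, the partner chain of the gate gene *Itga4*, rose by 0.47 ± 0.05, and *Itga6*, a laminin receptor chain, by 0.31 ± 0.05. *Itga3* was lower (−1.03 ± 0.19). Without cells holding an arterial or venous marker 6 of 15 genes of this list were higher and 1 lower, and neither *Itga6* (0.09, adjusted p = 0.527) nor *Itga3* (−0.76, adjusted p = 0.0922) was called.

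Tip cell genes outside the gate were mostly higher: 15 of 17 tested were called higher and 1 lower (median 1.33). The list was drawn up with earlier results of these samples known, so its direction is not independent evidence. *Adm*, adrenomedullin, a secreted vasoactive peptide, was at 70.4 and 66.3 CPM against 10.5 and 10.7 (2.68 ± 0.12). *Trp53i11* rose by 2.00 ± 0.11 and *Mcam*, the adhesion molecule CD146, by 1.95 ± 0.15. *Ramp3*, a coreceptor of adrenomedullin receptors, was the gene called lower (−0.64 ± 0.12).

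Among VEGF and semaphorin receptors and ligands 6 of 12 tested genes were higher and 4 lower (median 0.10). *Nrp1*, a coreceptor of VEGF and semaphorins, was at 686 and 686 CPM against 322 and 359 (1.01 ± 0.05), and *Plxnd1*, a semaphorin receptor, at 343 and 338 against 147 and 156 (1.16 ± 0.06). The receptor genes called here rose and the ligand genes *Vegfc* (−2.05 ± 0.14), *Sema3c* (−0.86 ± 0.05), *Sema3g* (−0.36 ± 0.08) and *Sema6a* (−0.44 ± 0.06) fell, with *Sema3f* (0.89 ± 0.21) as the exception, which in cells of 5000 to 15000 UMIs was at −0.22 and not called (adjusted p = 0.774). *Flt1* and *Kdr* helped to choose the ECs and were not tested.

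In the Notch list 5 of 13 tested genes were higher and 4 lower (median −0.02). *Dll4*, the ligand through which tip cells restrain their neighbours, was at 159 and 155 CPM against 85.7 and 92.1 (0.82 ± 0.07). The Notch target genes *Nrarp* (0.66 ± 0.11) and *Hey1* (0.62 ± 0.09) were higher too, and *Jag1*, the other main endothelial ligand, was lower (−0.22 ± 0.09). Without cells holding an arterial or venous marker 4 of the 13 were higher and none lower, with *Jag1* at 0.07 (adjusted p = 0.859), and in cells of 5000 to 15000 UMIs *Nrarp* was not called (0.29, adjusted p = 0.306). In the list of BMP and TGF-beta signalling 8 of 19 tested genes were higher and 5 lower (median 0.11), and without cells holding an arterial or venous marker 5 of 17 were higher and 1 lower. *Eng*, endoglin, a coreceptor for BMP9, was at 1313 and 1361 CPM against 725 and 796 (0.81 ± 0.04), and *Smad1* rose by 0.62 ± 0.07. The receptor *Acvrl1*, the partner of endoglin, was at 394 and 402 CPM against 429 and 419 and was not called (−0.09 ± 0.05).

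Of 12 tested effectors and targets of YAP and TAZ, the coactivators that respond to stretch and shear, 7 were higher and 1 lower (median 0.45). *Ccn2*, connective tissue growth factor, was at 522 and 451 CPM in angiogenic ECs of KO1 and KO2 and at 73.7 and 68.4 in reference ECs, and rose by 2.77 ± 0.06. *Ccn1* rose by 1.46 ± 0.05 and *Wwtr1*, which encodes TAZ, by 0.71 ± 0.05. *Yap1* was not called (−0.17 ± 0.09).

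Of 12 tested secreted growth factors and chemokines 7 were higher and 3 lower (median 0.65). *Cpe*, carboxypeptidase E, which processes peptide hormones, was at 761 and 680 CPM against 151 and 115 (2.46 ± 0.05). *Edn1*, the vasoconstrictor endothelin 1, was at 697 and 927 against 241 and 365 (1.43 ± 0.05). *Cxcl12*, a chemokine of arterial and capillary ECs, was at 6064 and 6812 against 3122 and 3510 (0.96 ± 0.04). *Wnt5a* (−3.03 ± 0.17), *Pdgfa* (−1.67 ± 0.13) and *Edn3* (−1.10 ± 0.07) were the 3 called lower. Among proteases and inhibitors 7 of 13 were higher and 4 lower (median 0.34), *Serpine2* (1.66 ± 0.10) among the higher, and in cells of 5000 to 15000 UMIs 4 of 12 were higher and 4 lower.

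Cell cycle genes did not move as a block: 5 of 15 tested were higher and 2 lower (median 0.23). The G1 cyclin *Ccnd1* was at 772 and 857 CPM against 217 and 261 (1.77 ± 0.05), and *Ccnd2* at 287 and 241 against 106 and 124 (1.18 ± 0.06). *Mki67*, which marks dividing cells, was at 3.51 and 0 CPM against 0 and 2.76 and was not called, and the groups overlapped. *Cdk1* was at 4.84 and 3.63 CPM against 1.71 and 0.744 and was called higher (1.83 ± 0.48). *Cdkn1a*, the cyclin-dependent kinase inhibitor p21, was higher (0.58 ± 0.05) and *Cdkn1c*, p57, lower (−0.77 ± 0.08). Of 18 tested endothelial transcription factors 5 were higher and 7 lower (median 0.01). *Meox1*, a homeobox factor, was at 190 and 177 CPM against 40.3 and 42.5 (2.14 ± 0.07), while the flow-responsive *Klf2* (−0.48 ± 0.04) and *Klf4* (−0.64 ± 0.05) and the arterial factor *Sox17* (−0.71 ± 0.06) were lower.

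**Figure D3:**
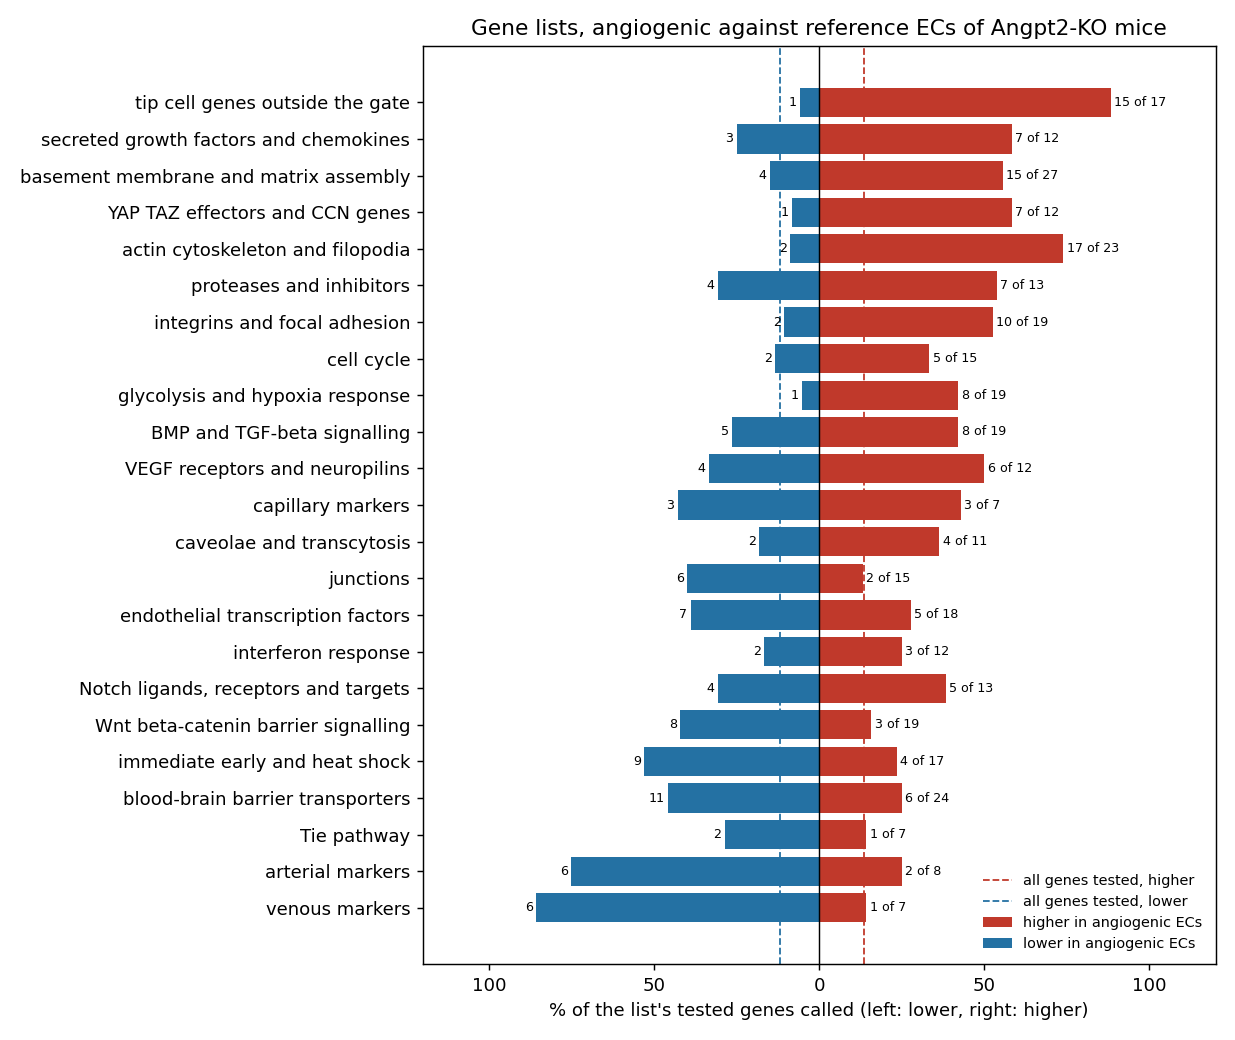
Percent of the tested genes of each of the 23 pathway and zone lists that were called higher (right, red) or lower (left, blue) in angiogenic than in reference ECs of Angpt2-KO mice, ordered by median log2 fold change; dashed lines mark the percent over all genes tested. Tip cell genes outside the gate have 15 of 17 higher, and venous markers 6 of 7 lower.

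Among called genes of at least 20 CPM in the higher group, the largest fall was that of *Col6a6*, a collagen VI chain (ENSMUSG00000043719, chr9:105687809-105828160), at 0.484 and 3.37 CPM in angiogenic ECs of KO1 and KO2 against 28.5 and 16.3 in reference ECs (−4.02 ± 0.27). *Adgrg6*, an adhesion G protein-coupled receptor (chr10:14402583-14545659), was at 1.69 and 4.40 CPM against 36.0 and 27.2 (−3.63 ± 0.22). *Wnt5a*, a ligand of noncanonical Wnt signalling (chr14:28504750-28527448), was at 3.99 and 7.51 CPM against 41.5 and 45.3 (−3.03 ± 0.17). *Vegfc*, the ligand of VEGFR3 (chr8:54077606-54187096), was at 11.2 and 8.29 CPM against 40.9 and 42.9. In these 4 genes the groups did not overlap. The other leading falls were *Mgp* (−3.32 ± 0.08), *Slc26a10* (−3.26 ± 0.23), *Fam181b* (−2.77 ± 0.23), *Vcam1* (−2.64 ± 0.09), *Eln* (−2.39 ± 0.15), *Gkn3* (−2.20 ± 0.11), *Ch25h* (−2.17 ± 0.22) and *Lmntd1* (−2.09 ± 0.18). With gates on counts thinned to 3000 UMIs *Ch25h* was at −1.34 and was not called (adjusted p = 0.119). By DESeq2 *Col6a6* (−4.01, adjusted p = 0.0668) and *Ch25h* (−2.26, adjusted p = 0.341) were not called, at about the same fold change as in the main fit. Of the list genes named in this comparison *Lamb2*, *Lama5*, *Ezr*, *Itga3*, *Ramp3*, *Sema3f*, *Sema3g*, *Nrarp*, *Jag1*, *Cdk1*, *Mfsd2a*, *Ocln*, *Akt1*, *Cd24a* and *Ttr* were not called by DESeq2 either.

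Several of these genes mark arteries or veins, and the reference ECs held cells of every zone. *Vcam1*, a leukocyte adhesion molecule of veins and activated ECs, was at 18.7 and 30.8 CPM in angiogenic ECs against 144 and 145. *Gkn3*, an arterial gene, was at 9.07 and 24.6 against 54.2 and 92.5, and the venous factor *Nr2f2* (−1.94 ± 0.10) was lower too. When cells with a UMI of *Bmx*, *Gkn3*, *Sema3g*, *Nr2f2*, *Vcam1* or *Lcn2* were left out of both groups, 894 genes were higher and 729 lower. *Mgp* was then no longer called (−0.29, adjusted p = 0.625), while *Wnt5a* (−4.38) and *Vegfc* (−3.62) remained lower and *Lamb1* (4.81) higher. *Slc26a10* (−2.89), *Fam181b* (−4.00) and *Lmntd1* (−2.89) were lower there too, and *Eln*, elastin, was lower by less than in all cells (−1.27, adjusted p = 0.00905). *Col6a6*, *Adgrg6* and *Ch25h* were too low to be tested among those cells, and *Vcam1* and *Gkn3* helped to choose them.

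**Figure D4:**
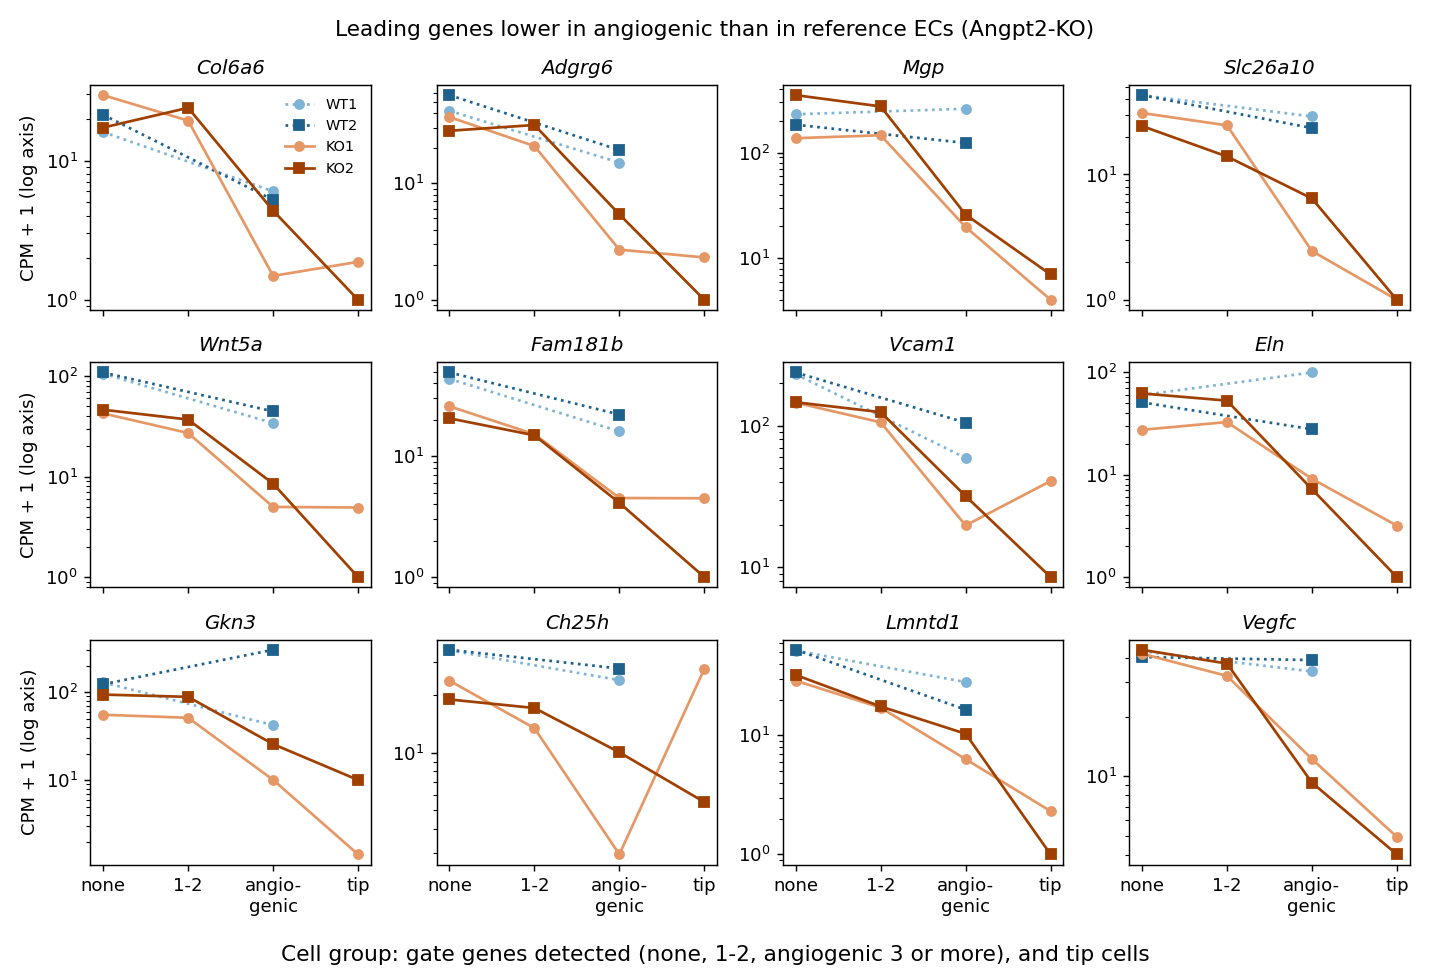
Normalized levels (CPM + 1, log axis) of the 12 genes with the largest fall, among genes of at least 20 CPM in the higher group, in the same 4 groups of ECs, with each line 1 mouse, dotted for WT. In both KO mice angiogenic ECs lie below reference ECs in all 12; in the WT mice *Mgp*, *Eln* and *Gkn3* are higher in the angiogenic than in the reference ECs of 1 mouse.

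Barrier transporters were lower more often than higher: of 24 tested, 6 were higher and 11 lower (median −0.17). The glucose transporter *Slc2a1* was at 1735 and 1736 CPM against 1725 and 1726, a log2 fold change of 0.01 ± 0.04. The taurine transporter *Slc6a6* was at 727 and 858 CPM against 1995 and 2160 (−1.40 ± 0.04), the glutamine transporter *Slc38a5* at 125 and 117 against 310 and 295 (−1.33 ± 0.06) and the monocarboxylate transporter *Slc16a1* at 313 and 247 against 567 and 465 (−0.88 ± 0.05). The efflux pump *Abcb1a* was lower by less (−0.26 ± 0.04). *Slc7a5*, a carrier of large neutral amino acids, rose by 0.51 ± 0.05, and *Mfsd2a*, a lipid transporter that restrains transcytosis, by 0.25 ± 0.05, though not without cells holding an arterial or venous marker (−0.02, adjusted p = 0.907). Without the cells holding an arterial or venous marker 3 were higher and 11 lower, and in cells of 5000 to 15000 UMIs 7 were higher and 9 lower.

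Of 19 tested genes of Wnt/beta-catenin barrier signalling 3 were higher and 8 lower (median −0.11), led by the secreted Wnt inhibitor *Notum* (−0.81 ± 0.09) and by *Sox17*. The transcription factor *Lef1* was at 503 and 464 CPM against 518 and 484 and was not called (−0.05 ± 0.05). Without cells holding an arterial or venous marker none of the 19 was higher and 8 were lower, and in cells of 5000 to 15000 UMIs 1 was higher and 8 lower. Of 15 tested junction genes 2 were higher and 6 lower (median 0.05), among them *Tjp1* (−0.36 ± 0.05), which encodes the scaffold ZO-1, and *Ocln*, occludin (−0.30 ± 0.06). In each of these 2 subsets of cells none was higher and 5 were lower. Of 11 tested genes of caveolae and transcytosis 4 were higher and 2 lower (median 0.06), and without cells holding an arterial or venous marker 4 and none. In cells of 5000 to 15000 UMIs 3 of these genes were higher and 3 lower (median −0.055). *Cav1*, the coat protein of caveolae, was at 364 and 426 CPM against 373 and 394 (0.04 ± 0.05).

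In the Tie pathway, 1 of 7 tested genes was higher and 2 were lower (median −0.18), which for the rise is near the 13.5% of all genes. *Tek*, which encodes the receptor of the deleted ligand, was at 234 and 258 CPM in angiogenic ECs of KO1 and KO2 and at 426 and 459 in reference ECs (−0.85 ± 0.05). *Ptprb*, the phosphatase that dampens TIE2, was lower (−0.21 ± 0.04), and *Akt1*, a kinase downstream of it, was higher (0.22 ± 0.07). Neither *Ptprb* (−0.17, adjusted p = 0.0574) nor *Akt1* (0.11, adjusted p = 0.611) was called without cells holding an arterial or venous marker, and *Akt1* was not called in cells of 5000 to 15000 UMIs (0.21, adjusted p = 0.144). *Foxo1*, the transcription factor that TIE2 signalling restrains, was at 131 and 136 CPM against 129 and 139 and was not called. *Tie1* helped to choose the ECs and was not tested.

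Immediate early and heat shock genes, which also respond to tissue dissociation, were higher in 4 and lower in 9 of 17 tested (median −0.13). *Nr4a1* was higher (1.02 ± 0.06), and *Ier3* (−1.51 ± 0.06) and *Hspa1a* (−0.87 ± 0.06) were lower. Of 19 tested genes of glycolysis and the hypoxia response 8 were higher and 1 lower (median 0.18). *Pfkp*, a platelet-type phosphofructokinase, rose by 0.99 ± 0.13, and *Ddit4* fell by 1.14 on the log2 scale (SE 0.09). Among cells of 5000 to 15000 UMIs 3 of 18 genes of this list were higher and 1 lower. Of 12 tested interferon response genes 3 were higher and 2 lower (median −0.00).

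Markers of red blood cells were higher in angiogenic ECs of KO1 and KO2, 4 of 4 called. *Hbb-bs*, beta-globin, was at 3976 and 6833 CPM against 2314 and 2582 (1.09 ± 0.04), and the 4 markers summed to 6208.3 and 10544.7 raw CPM against 3486.6 and 3810.9. In cells of 5000 to 15000 UMIs the 3 globin genes were lower (*Hbb-bs* −1.46), while *Alas2*, the first enzyme of haem synthesis in red cells, stayed higher (1.14, adjusted p = 0.0368). *Hbb-bs* was also lower at 3000 UMIs (−1.59) and without arterial or venous cells (−0.53), where *Alas2* was not called (0.35, adjusted p = 0.635). Its paralogs *Hba-a1* and *Hba-a2* are near-identical and their counts are uncertain. The 3 markers of fenestrated ECs, *Plvap*, *Igfbp3* and *Cd24a*, were called higher as well. *Plvap* was at 192 and 97.1 CPM against 50.5 and 50.7 (1.44 ± 0.07) and at −2.01 after thinning to 3000 UMIs. Without cells of 5 or more *Plvap* UMIs *Igfbp3* was not higher (−0.10, adjusted p = 0.571) and *Cd24a* was called lower (−0.76, adjusted p = 0.00422). *Cd24a* was also called lower in cells of 5000 to 15000 UMIs (−0.50) and after thinning (−2.19). The part of these cells or of free RNA in the other results was not tested. Of the 6 microglia, 3 astrocyte and 3 oligodendrocyte markers that could be tested 5 were lower and none higher, beside 11.7% of all genes lower. No microglia marker was called among the 3 tested without cells holding an arterial or venous marker. The same held for the 4 tested in cells of 5000 to 15000 UMIs (median 0.27). Among astrocyte and oligodendrocyte markers 1 of 2 and 2 of 2 were lower in the first subset, and 1 of 3 and 1 of 2 in the second. Of 4 pericyte, 2 smooth muscle, 2 platelet and 1 neuron marker that could be tested none was called in either direction. Of 3 tested choroid plexus markers 2 were called higher, *Enpp2* (1.36 ± 0.07) and *Ttr* (0.20). *Ttr* was at 44.4 CPM against 102 in KO1 and at 559 against 322 in KO2. The 2 mice thus went in opposite directions for *Ttr*, and the call does not show a rise in both.

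Tip cells, 71 in KO1 and 33 in KO2, were set beside the angiogenic ECs of the same mice to show how far apart the groups were. Of 10562 genes tested 1596 were higher (15.1%) and 1348 lower (12.8%) in tip cells, together 27.9%, and the tip cells were deeper, with medians of 28329 and 18949 UMIs. *Pgf*, placental growth factor, was at 282 and 289 CPM in tip cells of KO1 and KO2 and at 1.09 and 5.96 in angiogenic ECs (6.73 ± 0.16). *Egln3*, a hypoxia-induced prolyl hydroxylase, was at 110 and 70.8 against 2.18 and 2.33 (5.43 ± 0.25). *Gpr55*, *Cd276* and *Ankrd1*, the other leading rises, were each under 1.4 CPM in angiogenic ECs.

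Against the 15.1% of all genes higher and 12.8% lower in tip cells, matrix and actin genes were mostly higher and barrier transporters mostly lower. In tip cells 18 of 27 genes of basement membrane and matrix assembly were higher than in angiogenic ECs and 3 lower (median 1.21), and 22 of 23 actin genes were higher and 1 lower (median 0.95). *Fn1*, fibronectin, was lower in angiogenic than in reference ECs (−0.13 ± 0.04) and higher in tip cells than in angiogenic ECs (1.39). Of 24 barrier transporters 1 was higher and 22 were lower in tip cells (median −1.0), *Slc2a1* among them (−0.90). *Ccn2* (0.28) and *Nrp1* (0.17) differed little between tip cells and angiogenic ECs, and *Cxcl12* was lower in tip cells (−1.31). All 3 markers of fenestrated ECs and all 4 of red blood cells were lower in tip cells. This comparison was not run without cells of 5 or more *Plvap* UMIs, and the part of such cells or of free RNA in it was not tested. The leading falls in tip cells were *Col13a1* (−5.13 ± 0.53), *Atp2b4* (−4.97 ± 0.54), *Igfbp3* (−4.28 ± 0.16), *Hbb-bs* (−4.02 ± 0.09) and *Alpl* (−3.75 ± 0.41). By DESeq2 *Atp2b4* (−5.16, adjusted p = 0.159) and *Hbb-bs* (−4.72, adjusted p = 0.305) were not called, though neither fold change was smaller. In cells of 10000 to 30000 UMIs 1042 genes were higher and 796 lower.

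Within the *Angpt2*-WT mice the 89 gated cells were compared with reference ECs in a fit of all 4 mice. Of 12053 genes tested 962 were higher (7.98%) and 626 lower (5.19%), together 13.2%. Without cells of 5 or more *Plvap* UMIs, which removed 13 gated cells of WT1 and 20 of WT2, 144 were higher and 64 lower. *Gng2*, a leading rise of both genotypes, was at 74.2 (WT1) and 67.4 (WT2) CPM against 0.742 and 1.74 in reference ECs (5.84 ± 0.27), and at 3.73 (adjusted p = 0.0261) without those cells. Of the other leading rises *Gpihbp1* was at 2.88 (adjusted p = 0.162) and *Btnl9* at 4.36 (adjusted p = 0.198) without them, and *Inhbb* and *Kcnk5* could not be tested. *Gpihbp1*, which carries lipoprotein lipase on capillaries of fat and muscle, was at 291 and 649 CPM against 3.08 and 7.47. The 4 markers of red blood cells were all called higher in the gated *Angpt2*-WT cells (median 1.42). *Hbb-bs* was at 12344 raw CPM against 1621 in reference ECs of WT1 and at 3114 against 3195 in WT2. *Alas2* was at 73.0 against 3.69 in WT1 and at 13.5 against 5.28 in WT2. The part of red cell RNA in these results and in the comparisons between genotypes was not tested. The leading falls were *Ltc4s* (−2.61 ± 0.45), *Ecrg4* (−2.60 ± 0.46), *Ttr* (−2.26 ± 0.35), *Angptl4* (−1.93 ± 0.37) and *Sox9* (−1.77 ± 0.29). Without the *Plvap* cells they were at −2.44, −2.06, −2.04, −1.37 and −1.26 in the same order, with adjusted p of 0.0573 to 0.166, so that none was called in the smaller set of cells. None was called in cells of 5000 to 15000 UMIs either. There *Ltc4s* (−3.05, adjusted p = 0.0505) and *Sox9* (−2.47, adjusted p = 0.0625) were at larger falls than in all cells. *Ecrg4* (−1.69), *Angptl4* (−1.25) and *Ttr* (−0.24) were at smaller ones. By DESeq2 *Ttr* was not called in all cells (−2.37, adjusted p = 0.195), and its level in reference ECs was 751 raw CPM in WT1 and 2897 in WT2.

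Several of the leading rises of *Angpt2*-KO were also high in the gated *Angpt2*-WT cells. *Lamb1* was at 51.1 and 42.2 CPM in gated cells of WT1 and WT2 and at 1.26 and 1.54 in their reference ECs, and the gate effect was not called different between genotypes (−0.58 ± 0.41, adjusted p = 0.55), by a test that recovered 11.1% of 2-fold differences in simulated counts. Without the *Plvap* cells the difference of *Lamb1* was 0.056 ± 0.55. *Fscn1* was at 57.1 and 77.3 against 1.48 and 2.01, and *Thbs1* at 86.2 and 70.3 against 1.60 and 1.34, and both effects were called smaller in *Angpt2*-KO (differences −1.66 ± 0.31 and −2.59 ± 0.31). Without the *Plvap* cells neither was called, with *Fscn1* at −0.76 ± 0.54 and *Thbs1*, which turned, at 1.52 ± 0.69. The rise of *Thbs1* in gated *Angpt2*-WT cells was then 1.95 ± 0.83 in place of 5.77 ± 0.23 and was not called (adjusted p = 0.368), while *Lamb1* (4.81) and *Fscn1* (4.995) rose there too. *Tnfsf8* was at 2.01 and 0 in gated *Angpt2*-WT cells, below both *Angpt2*-KO values. Among the tip cell genes outside the gate 16 of 18 tested were higher and none lower in the *Angpt2*-WT mice, and among barrier transporters none of 24 was higher and 19 were lower, beside 7.98% and 5.19% of all genes. Without the *Plvap* cells 7 of 17 tip cell genes were higher and none lower, and 2 of 24 transporters were higher and 4 lower, beside 1.21% and 0.537% of all genes.

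The difference of the gate effect between genotypes was tested as an interaction. Of 12053 genes 248 had a higher effect in *Angpt2*-KO (2.06%) and 474 a lower one (3.93%), together 5.99%, and without cells of 5 or more *Plvap* UMIs 28 and 95. *Cpe* was called with them (1.59 ± 0.13) and without them (0.98, adjusted p = 0.00338). It was at 761 and 680 CPM in angiogenic ECs of KO1 and KO2 and at 141 and 169 in those of WT1 and WT2, against 151, 115, 82.7 and 93.7 in the reference ECs of the same mice. The genes with a lower effect were led by genes high in gated *Angpt2*-WT cells, such as *Gpihbp1* (−4.97 ± 0.19) and *Fam167b* (−4.35 ± 0.37). Without the *Plvap* cells the difference of *Gpihbp1* was −4.07 (adjusted p = 0.14) and that of *Fam167b* −1.44 (adjusted p = 0.896), and neither was called.

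**Figure D5:**
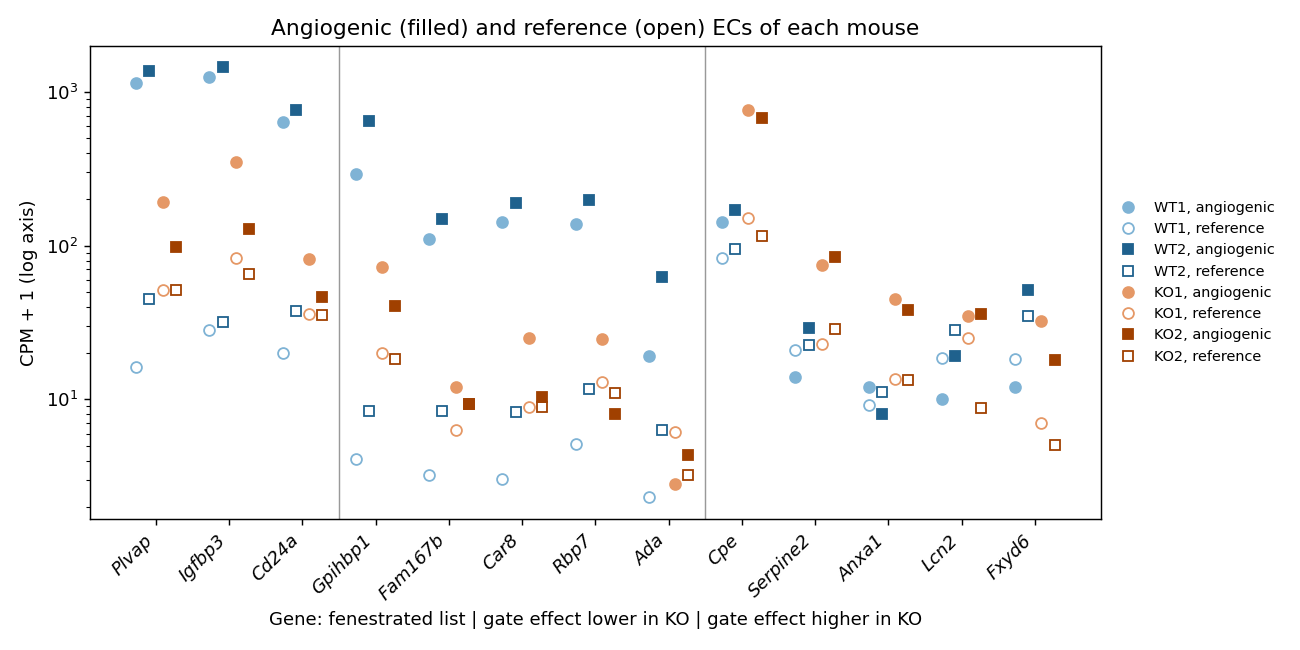
Normalized levels (CPM + 1, log axis) in angiogenic (filled) and reference ECs (open) of each mouse for the 3 markers of fenestrated ECs and for the genes whose gate effect was most lower or most higher in KO. The fenestrated markers of WT1 and WT2 lie above those of KO1 and KO2 in angiogenic ECs, and *Cpe* of KO1 and KO2 lies at 761 and 680 CPM, above 141 and 169 in WT1 and WT2.

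Angiogenic ECs of the 2 genotypes were also compared directly. Of 10280 genes 207 were higher (2.01%) and 396 lower (3.85%) in *Angpt2*-KO, together 5.87%, and without cells of 5 or more *Plvap* UMIs 95 and 158. *Tnfsf8* was at 26.4 and 23.6 CPM in KO1 and KO2 against 2.01 and 0 in WT1 and WT2 (4.33 ± 0.58; 3.70 without the *Plvap* cells, adjusted p = 0.0084). *Hcls1*, a cortactin-like actin regulator known from blood cells, was at 28.9 and 25.9 against 8.02 and 2.81 (2.18 ± 0.38; 3.80 without them). *Ltc4s*, leukotriene C4 synthase, was at 26.6 and 24.1 against 3.01 and 4.22 (2.79 ± 0.40; 2.71 without them). *Klhl23* (2.34 ± 0.48) and *Slc9b2* (2.50 ± 0.44) were the other leading rises, and *Slc9b2* was not called without the *Plvap* cells (1.85, adjusted p = 0.0728). The leading falls were *Ada* (−4.03 ± 0.54), *Cyp26b1* (−3.84 ± 0.39), *Fam167b* (−3.72 ± 0.22), *Gm26802* (−3.70 ± 0.41) and *Mfap2* (−3.68 ± 0.30), of which *Gm26802* could be tested without those cells and stayed lower (−3.87). Within 5000 to 15000 UMIs *Tnfsf8* (8.54, adjusted p = 0.0466), *Cyp26b1*, *Fam167b*, *Gm26802* and *Mfap2* were called, while *Hcls1* (3.50, adjusted p = 0.0712), *Klhl23* (8.09, adjusted p = 0.127), *Ltc4s* (2.64, adjusted p = 0.369), *Slc9b2* (1.35, adjusted p = 0.554) and *Ada* (−3.70, adjusted p = 0.0712) were not. Only 51 and 38 *Angpt2*-WT cells stand behind these values, with 972784 and 665661 UMIs against 8312097 and 3861196, and without WT1 407 genes were called higher and 480 lower.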

How the data were processed

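Per the labels and the study's methods, the authors made 1 10x Genomics 3′ library per mouse (2 *Angpt2*-WT, 2 *Angpt2*-KO) and deposited UMI counts per gene and barcode, without normalization, from Cell Ranger (6.1.2 in the submitters' notes, 6.1.1 in the file headers) on GRCm38. The files hold 32286 genes and 19809 barcodes, of which 17999 passed the filters. Gates used the raw counts, and no doublet caller was run; the bound on mural and microglial UMIs and a fit without the deepest 5% of ECs bear on doublets. UMIs were summed per mouse and cell group and tested with edgeR 4.0.16 (TMM, filterByExpr, quasi-likelihood F test, R 4.3.3), with a threshold of 0.05 for adjusted p. The mouse was a term within genotypes, since both sums come from 1 animal. The SE is the log2 fold change over the root of F. It rests largely on the spread that the fit shares across genes and is not the spread between the 2 mice. Levels are TMM-normalized CPM; raw CPM are not. The 18 gate genes were not tested. Coordinates are from GENCODE M21 (GRCm38), matched by gene ID for 99.6% of genes.

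On simulated counts for *Angpt2*-KO angiogenic against reference ECs, with 198 changed genes among 11548 tested, 68.1% of 2-fold and 100% of 4-fold changes were recovered, with 7 false calls. For the genotype comparison of angiogenic ECs it was 37.0% and 91.3% of 196 among 10184, with 3 false calls, and for the difference of the gate effect between genotypes 11.1% and 77.8% of 198 among 11827, with 5 false calls. Every simulated gene had the same dispersion of 0.02, and no mouse effect or RNA of other cells was simulated. The numbers of false calls therefore do not give the error rate in the measured counts.

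Named genes were the called genes outside the gates with the same sign in every mouse and at least 20 CPM in the higher group, the 12 largest in each direction for angiogenic against reference ECs in *Angpt2*-KO and 5 for other comparisons, and up to 4 genes with the smallest p of each of 34 lists; 1 of the 12 rises and some list members are not reported here, and other list members were chosen after their values were seen. The members, lists and tests were chosen with earlier results of these data known. Alternatives were DESeq2 1.42.0, upper quartile normalization, no filter on low counts, no mouse term, a fit of all mice, leaving out each mouse, another reference, other gates, thinning and limits on zone, depth, *Plvap*, mural and microglial UMIs. The mice of 1 number share sex but not an animal. The study speaks of 2 independent experiments, which the labels do not tie to the numbers, so the fit between genotypes had no block, with the blocked fit as an alternative. The spread between 2 mice per genotype is the only replicate error, and the SE and p values rest on it only in part.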

Additional observations from a re-analysis of the deposited data

Results flagged for a closer look

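These 10 genes had the largest differences of the gate effect between genotypes, 5 in each direction, among genes with a mean of at least 20 CPM in angiogenic ECs and effects that did not overlap between genotypes, by a test of the difference itself (log2 fold change of angiogenic over reference ECs in *Angpt2*-KO minus that in *Angpt2*-WT, edgeR, all adjusted p under 0.05). Their cause was not tested. The gate effect was higher in *Angpt2*-KO by 2.00 for *Fxyd6*, 1.91 for *Lcn2*, 1.70 for *Serpine2*, 1.59 for *Cpe* and 1.58 for *Anxa1*. *Fxyd6* was at 31.4 and 17.1 CPM in angiogenic ECs of KO1 and KO2 and at 11.03 and 50.6 in those of WT1 and WT2, which overlap. *Serpine2*, a protease inhibitor, was at 74.2 and 83.4 CPM in angiogenic ECs of KO1 and KO2 and at 13.0 and 28.1 in those of WT1 and WT2. *Anxa1*, annexin A1, was at 43.8 and 37.0 against 11.03 and 7.03. *Lcn2*, a venous and inflammatory gene, was at 34.1 and 35.0 against 9.02 and 18.3. Without cells of 5 or more *Plvap* UMIs the difference was 1.51 for *Fxyd6*, 1.86 for *Lcn2*, 1.21 for *Serpine2* and 0.95 for *Anxa1*, none of them called. In cells of 5000 to 15000 UMIs *Fxyd6* (−0.075, adjusted p = 0.986) and *Anxa1* (1.62, adjusted p = 0.307) were not called. The difference there was larger for *Lcn2* (4.10) and *Serpine2* (3.20) and smaller for *Cpe* (0.88), all of them called. By DESeq2 *Lcn2* (2.01, adjusted p = 0.0545) and *Anxa1* (1.58, adjusted p = 0.121) were not called, at about the same difference.

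The gate effect was lower in *Angpt2*-KO by −4.97 for *Gpihbp1*, −4.35 for *Fam167b*, −4.25 for *Car8*, −4.24 for *Ada* and −4.17 for *Rbp7*. These genes were high in the gated *Angpt2*-WT cells, *Car8* at 142 and 188 CPM in WT1 and WT2 against 24.1 and 9.33 in KO1 and KO2, and *Rbp7* at 136 and 197 against 23.6 and 6.99. In *Angpt2*-KO mice *Rbp7* was highest in ECs with 1 or 2 gate genes, at 87.7 and 69.7 CPM. In cells of 5000 to 15000 UMIs all 5 stayed lower, from −4.06 for *Ada* to −5.99 for *Rbp7*. Without cells of 5 or more *Plvap* UMIs *Gpihbp1* was at −4.07, *Ada* at −3.09, *Car8* at −2.12 and *Fam167b* at −1.44, none of them called, and *Rbp7* could not be tested.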

How the results depend on the processing

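For angiogenic against reference ECs in *Angpt2*-KO, 1562 genes higher and 1347 lower became 472 and 311 by DESeq2, 879 and 680 with no replicate block (no mouse term), 894 and 729 without cells holding an arterial or venous marker, and 675 and 579 with gates on counts thinned to 3000 UMIs. In cells of 5000 to 15000 UMIs 948 were higher. Leaving out a mouse, with the spread then taken from the *Angpt2*-WT mice, gave 451 to 565 higher and 364 to 468 lower. In *Angpt2*-WT, 962 and 626 became 144 and 64 under 5 *Plvap* UMIs and 446 and 317 in the depth window, with 248 lower by DESeq2. The difference between genotypes went from 248 and 474 to 94 and 250 by DESeq2, 28 and 95 under 5 *Plvap* UMIs and 131 and 229 in the window, and to 119 to 324 higher and 293 to 569 lower without 1 mouse. Angiogenic ECs of *Angpt2*-KO against *Angpt2*-WT went from 207 and 396 to 50 and 133 in the window and 95 and 158 under 5 *Plvap* UMIs, with 405 higher without a filter on low counts and 89 to 407 higher and 207 to 480 lower without 1 mouse. With the replicate number as a block the counts were 226 and 447; deviations of same-numbered mice correlated at 0.076 (Pearson, across genes), so the numbers were not taken to pair the mice. Tip cells against angiogenic ECs went from 1596 and 1348 to 700 and 350 by DESeq2 and 1042 and 796 in cells of 10000 to 30000 UMIs. The mean share in the gate was 31.1% in *Angpt2*-KO with 2 or more genes, 11.2% with 4 or more and 8.91% after thinning, and in *Angpt2*-WT 0.234% with 4 or more, 5.22% with 2 or more and 0.182% after thinning, and single mice gave 10.8 to 25.6% and 0.762 to 1.52%. The limits under 5 *Plvap* UMIs and on depth for comparisons with *Angpt2*-WT were chosen after seeing the data.

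Of 1906 values of 113 named genes in the first comparison, 1754 kept direction and call, 119 lost the call and 33 reversed, and the cause was not tested. Of the 10 leading genes 3 kept the call in *Angpt2*-WT in each alternative that could test them, 2 for the difference between genotypes, 5 for *Angpt2*-KO against *Angpt2*-WT and 8 for tip cells. Under 5 *Plvap* UMIs 1 of 10 kept it in *Angpt2*-WT and 1 of 10 for the difference. With all other ECs as reference *Igfbp3* was at −0.68, *Plvap* −0.72, *Ttr* −1.45 and *Cd24a* −1.07. Without arterial or venous cells *Vwf* was at 0.40, *Ifitm3* 0.075, *Hba-a1* −0.12, *Hbb-bs* −0.53, *Hba-a2* −0.054 and *Ttr* −0.83. In the depth window *C1qa* was at 0.17, *Hba-a1* −0.92, *Hbb-bs* −1.46, *Hba-a2* −0.74, *Cd24a* −0.50 and, for the difference between genotypes, *Fxyd6* −0.075. After thinning *Igfbp3* was at −0.29, *Plvap* −2.01, *Vwf* 0.042, *Ifitm3* 0.014, *Hba-a1* −1.75, *Hbb-bs* −1.59, *Hba-a2* −1.50, *Ttr* −0.089 and *Cd24a* −2.19. Under 5 *Plvap* UMIs *Igfbp3* was at −0.10 and *Cd24a* −0.76. *Ttr* was also at −0.20 by DESeq2, −0.039 in a fit of all mice, −0.022 with 4 or more genes, −0.10 with 3 of the 6 genes other than *Apln* and *Esm1* and −0.14 without mural or microglial UMIs, and *Cd24a* at −0.70 with those 6 genes. Leaving out 1 *Angpt2*-KO mouse gave *Ttr* −1.21 to 0.82.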
